A study of Rattus norvegicus with 6 samples.

Results

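The sites described here are 805 stretches of chromatin in INS-1 cells that were already accessible before stimulation and that gained accessibility with both Ex-4 and FSK, in WT and in Med14 S983A cells alike. They were found by ATAC-seq, in which the Tn5 transposase cuts DNA that it can reach, so that the density of reads over a peak measures how open the site is. The 805 peaks were selected on the measured changes themselves. Each lies outside the mitochondrial chromosome, was called as a peak in all 6 libraries, averaged 1 FPKM or more, and rose at least 2-fold with FSK and at least 1.5-fold with Ex-4 in each genotype. FPKM is here a number of reads over a peak, scaled by peak length and by the reads inside the library's own peaks. Reads outside the library's own called peaks appear to be left out, because peaks not called in a library are listed at or near 0. A call that covers only part of a merged peak could then lower the value of that library. The part of this in the levels before stimulation and in the changes was not tested. All changes, folds of the rule included, are differences of log2(FPKM + 0.5), on which the change of a weak peak comes out smaller than its ratio of FPKM. A change of 1 is then a doubling. Of 220490 merged peaks in the series, 86465 were tested, meaning called in all 6 libraries off the mitochondrial chromosome with a mean of at least 1 FPKM, and the 805 are 0.931% of these.

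Ex-4 is a stable peptide agonist of the GLP-1 receptor, which raises cAMP in pancreatic beta cells, and FSK raises cAMP by activating adenylate cyclase directly. cAMP activates PKA, which phosphorylates CREB, a transcription factor bound at promoters and enhancers of cAMP-responsive genes. Mediator is the large complex that connects such factors with RNA polymerase II, and Med14 is its scaffold subunit. An accessible site is a stretch where nucleosomes have been moved or loosened, as at active promoters and enhancers, and its accessibility can grow within minutes to hours of a signal.

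INS-1 is a rat insulinoma line used as a model of the beta cell. One group of cells was WT and the other carried Med14 S983A, an alanine in place of the serine of Med14 that PKA phosphorylates, introduced by CRISPR knock-in into lines grown from sorted single cells. Cells of both genotypes were moved to medium without serum and were then left untreated (CON) or given 10 nM Ex-4 or 10 µM FSK for 1 h, and each of the 6 conditions has 1 library. The sources used here do not say which mutant line was sequenced or whether replicates were pooled, so a difference between genotypes cannot be told apart from a difference between cell lines. Without replicates there is no replicate error and no test, and every value describes these libraries. The labelled cell type was not checked against beta cell genes, because no annotation of the rn6 genome was used here.

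Reads in peaks, recovered from the steps between the lowest FPKM values, ranged from 134300000 in Med14 S983A CON to 251100000 in WT FSK, the deepest library. The weakest value of any of the 805 peaks rested on 23 reads, and the median peak held 314 reads in WT CON and 2684 in WT FSK. The 95% exact Poisson intervals of CON and the treated library did not overlap at any of the 805 peaks, for either stimulus in either genotype, which the limits of the rule largely fix. Among tested peaks the treated interval lay wholly above that of CON at 23.1% for WT FSK, 12.9% for WT Ex-4, 21.2% for Med14 S983A FSK and 14.4% for Med14 S983A Ex-4. Such intervals cover counting error only.

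Before treatment the 805 peaks were open but weak. Their median was 3.66 FPKM in WT CON and 3.15 in Med14 S983A CON, against 8.79 and 8.05 for all tested peaks, so that the median member stood at percentile 20 and 19.4 of tested peaks. Levels before treatment ran from 0.218 to 53.5 FPKM in WT CON and from 0.347 to 37.7 FPKM in Med14 S983A CON. With Ex-4 the median rose to 7.25 FPKM in WT and 6.64 in Med14 S983A, which is close to the median of tested peaks in those libraries, 8.72 and 8.06. With FSK it reached 18.5 and 13.3 FPKM, above the tested medians of 8.43 and 7.43. The median percentile moved from 20 in WT CON to 43.5 with Ex-4 and 76.5 with FSK. In Med14 S983A it moved from 19.4 to 43.6 and 67.7. Together the 805 peaks took 0.328% of all reads in peaks in WT CON, 0.642% with Ex-4 and 1.27% with FSK, while the corresponding shares were 0.31%, 0.603% and 1.05% in Med14 S983A. The low level in CON is in part set by the rule, because CON enters each change. Whether narrower peak calls in CON also lowered it was not tested.

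**Figure D1:**
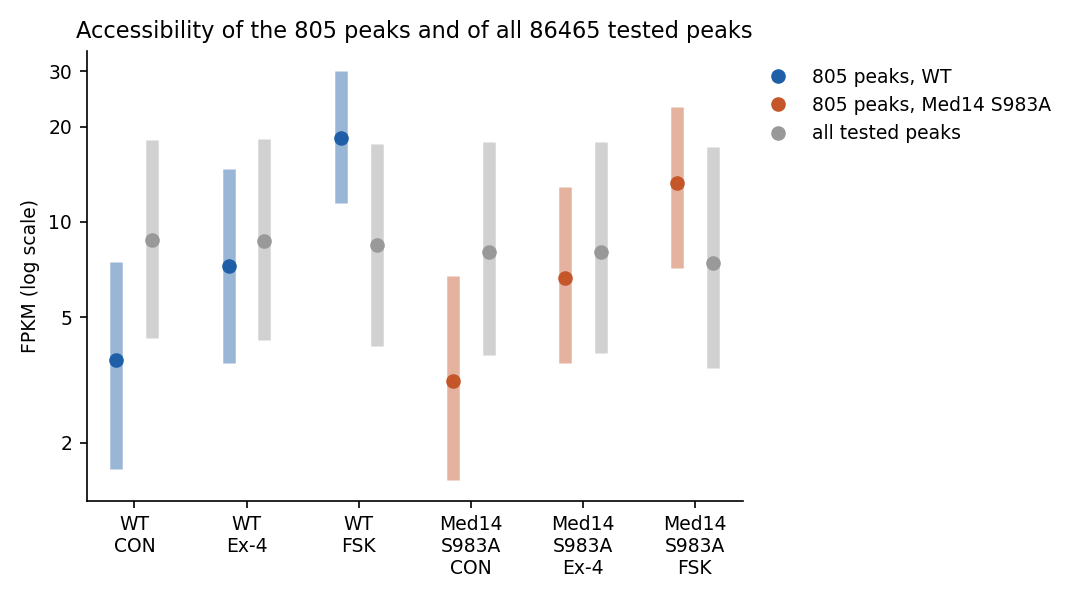
Median accessibility (points) and the middle 50% of peaks (bars) in FPKM on a log axis, for the 805 peaks (blue in WT, orange in Med14 S983A) and for all 86465 tested peaks (gray), in each of the 6 libraries. The 805 peaks move from a median of 3.66 to 18.5 FPKM between CON and FSK in WT and from 3.15 to 13.3 in Med14 S983A, while the tested peaks stay between 7.43 and 8.79.

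Each limit of the rule was passed by few tested peaks. An FSK change of at least 1 was found at 5.94% of tested peaks for WT and 4.56% for Med14 S983A, and an Ex-4 change of at least 1.5-fold at 2.34% in WT and 3.6% in Med14 S983A. All 805 peaks passed every one of these by construction. In WT, 1531 peaks passed both limits and 52.6% of them did so in Med14 S983A too, whereas in Med14 S983A 2085 passed both and 38.6% of them did so in WT. For most peaks an Ex-4 limit was the closest one. The smallest margin lay at the Ex-4 limit for 428 peaks of WT and 282 of Med14 S983A, at the FSK limit in Med14 S983A for 85 and at the FSK limit in WT for 10. Of peaks that missed a single limit, 994 missed Ex-4 in WT, 188 Ex-4 in Med14 S983A, 117 FSK in Med14 S983A and 14 FSK in WT.

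The peaks nearest to the limits lay at an Ex-4 limit. Just inside, chr12:8134741-8135211 (rn6) had an Ex-4 change of 0.59 in Med14 S983A, from 4.91 to 7.62 FPKM. The peaks chr11:25307231-25307606 and chr9:43777578-43777882 had 0.59 in WT, from 2.15 to 3.48 and from 2.87 to 4.56 FPKM. Just outside were chr7:121082677-121083467 (11.5 to 17.5 FPKM with Ex-4 in WT), chr2:50157244-50157891 (18.5 to 28.0) and chr5:58089586-58090048 (2.52 to 4.02), each with a change of 0.58. The counting intervals of these peaks are wider than their distance from the limit.

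Over the 805 peaks, the median FSK change was 2.02 in WT and 1.68 in Med14 S983A, and the median Ex-4 change was 0.86 in WT and 0.89 in Med14 S983A. The medians over all tested peaks were -0.13 and -0.12 for FSK and -0.017 and -0.021 for Ex-4. As ratios of FPKM, FSK over CON had a median of 4.63 in WT and 3.63 in Med14 S983A, and ranged up to 53.6 and 44.6. Ex-4 over CON had a median of 1.96 in WT and 2.03 in Med14 S983A, and ranged up to 10.3 and 8.19. The Ex-4 and FSK changes of a genotype share its CON library and the error of that library. FSK exceeded Ex-4 at all 805 peaks in WT, against 35.4% of tested peaks, with a median ratio of 2.23 and a range of 1.1 to 10.8. In Med14 S983A it did so at 802 of the 805, against 36.8% of tested peaks, with a median ratio of 1.76. The higher limit for FSK favours this order, so it is a description of how the peaks were chosen. The Ex-4 change amounted to a median of 44.3% of the FSK change in WT, with the middle 50% of peaks between 34.6% and 55.8%, and to 54.3% in Med14 S983A, between 45.8% and 63.5%. It reached 1 at 262 peaks in WT, at 281 in Med14 S983A and at 142 in both, against 0.448%, 0.634% and 0.165% of tested peaks, counts that the Ex-4 limit of the rule favours. At these 142 peaks the median level rose from 3.07 FPKM in WT CON to 7.998 with Ex-4 and 20.4 with FSK, and from 2.16 to 6.50 and 15.3 in Med14 S983A.

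Peaks with a large FSK change in WT also tended to have a large one in Med14 S983A. Across the 805 peaks, the FSK changes in WT and Med14 S983A had a Pearson correlation of 0.72 and a Spearman correlation of 0.70. For the Ex-4 changes these were 0.47 and 0.37. These are descriptions across peaks, which are not replicates, of values that the rule truncates from below at a different limit for each stimulus, so they do not rank the stimuli.

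**Figure D2:**
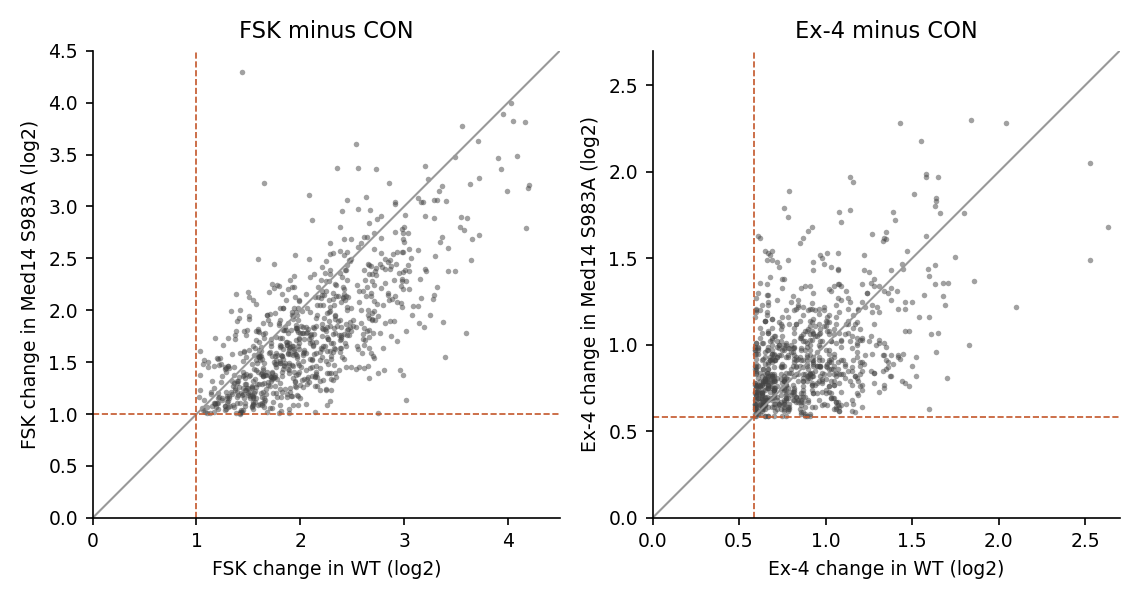
Change from CON on the log2 scale in WT (horizontal axis) and Med14 S983A (vertical axis) for FSK on the left and Ex-4 on the right, 1 point for each of the 805 peaks, with dashed lines at the limits of the rule and a gray line where both genotypes are equal. For FSK 646 of the 805 points lie below the gray line, and for Ex-4 347 do.

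The 10 peaks with the largest mean of the 4 changes all started below 3 FPKM in both CON libraries. The first, chr16:26992508-26993172, measured 0.795, 3.39 and 22.6 FPKM in WT, in the order CON, Ex-4, FSK, and 0.875, 4.90 and 18.8 FPKM in Med14 S983A. Its FPKM rose 28.4-fold with FSK in WT and 21.5-fold in Med14 S983A, and its Ex-4 changes were 4.26-fold and 5.6-fold. Its counting intervals in CON, 0.631 to 0.99 FPKM in WT and 0.691 to 1.09 in Med14 S983A, overlap. At chr1:275238754-275239365 the values were 0.864, 3.18 and 19.8 FPKM in WT and 1.32, 8.33 and 19.7 in Med14 S983A. Here the FSK levels were alike in both genotypes, and the Ex-4 level differed between them by 1.26 on the log2 scale. At chr5:122377348-122377791 they were 0.805, 2.37 and 20.8 FPKM in WT and 1.33, 5.78 and 28.7 in Med14 S983A, with an FSK change of 4.03 in WT that differed by -0.032 in Med14 S983A. At chr14:3290317-3291437 they were 0.902, 2.77 and 22.7 FPKM in WT and 1.30, 4.64 and 24.8 in Med14 S983A. At these 4 peaks the WT ratio of Ex-4 to CON lay between 2.95 and 4.26 and that of FSK to CON between 22.9 and 28.4.

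The strongest of the 10 by level was chr4:177415968-177416391, at 2.75, 7.68 and 54.6 FPKM in WT (CON, Ex-4, FSK) and 2.94, 9.93 and 38.2 in Med14 S983A. Its CON levels differed by 0.083 between genotypes and its FSK levels by -0.51. The peak chr8:120014959-120015567 stood apart by its Ex-4 response. It had 0.966, 7.98 and 11.7 FPKM in WT and 0.747, 4.66 and 7.03 in Med14 S983A, so that the Ex-4 change was 81% of the FSK change on the mean of both genotypes. The other 4 of the 10 lie in a single region of chromosome 1 and are described with that cluster.

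The 5 peaks with the highest mean level were open in CON and rose by less. At chr12:12863291-12864118 accessibility was 53.5, 85.4 and 109 FPKM in WT (CON, Ex-4, FSK) and 24.3, 41.8 and 63.9 in Med14 S983A. All 3 levels were lower in Med14 S983A, by -1.12, -1.02 and -0.77. The remaining 4, chr17:12162365-12163379, chr17:70005468-70006184, chr10:109023085-109023822 and chr1:259350585-259351271, had between 30.4 and 39.3 FPKM in WT CON and between 71.2 and 96.4 with FSK. In Med14 S983A they had between 25.3 and 35.8 FPKM in CON and between 73.5 and 81.9 with FSK. FSK raised these 4 peaks between 2.11-fold and 2.95-fold in WT and between 2.18-fold and 2.91-fold in Med14 S983A.

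The share of the FSK response that Ex-4 reached varied between peaks. It was highest at chr9:60475941-60476384, 86.5% on the mean of both genotypes, where the 3 libraries of WT gave 4.87, 10.6 and 11.6 FPKM and those of Med14 S983A 1.66, 3.64 and 4.18. At chr8:92830928-92831744 (86.2%) the values were 2.51, 10.2 and 13.9 FPKM in WT and 1.17, 2.84 and 3.06 in Med14 S983A. At chr1:269405679-269406317 (85.0%) they were 4.59, 12.1 and 19.4 in WT and 4.01, 10.0 and 9.70 in Med14 S983A, one of the 3 peaks where Ex-4 was not below FSK in that genotype. These 3 peaks have in common a small FSK change in Med14 S983A, between 1.09 and 1.18, next to the limit. The share was lowest at chr10:4749767-4750394 (24.3%), with 3.30, 5.62 and 38.5 FPKM in WT against 2.60, 5.29 and 28.0 in Med14 S983A. The next lowest were chr3:134799964-134800260, with 2.32, 3.91 and 19.9 FPKM in WT and 3.80, 6.29 and 22.1 in Med14 S983A, and chr16:82075702-82076092, with 1.66, 3.34 and 26.2 and 1.97, 4.04 and 22.5. At these sites Ex-4 gave between 1.66-fold and 2.06-fold and FSK between 5.83-fold and 15.8-fold.

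The genotypes were compared at the same 805 peaks within each treatment. In CON the median difference, Med14 S983A minus WT, was -0.0041, with a 95% interval of the median from the ranked peaks of -0.078 to 0.064, and 404 peaks were lower in Med14 S983A and 401 higher. With Ex-4 it was 0.051 (-0.036 to 0.12), with 384 peaks lower. With FSK it was -0.32 (-0.39 to -0.25), and 573 of 805 peaks (71.2%) were lower in Med14 S983A, against 47.4% of all tested peaks. The medians over tested peaks were 0.051, 0.052 and 0.037. With each library centred on its own median and the peaks chosen again, the median difference was 0.10 in CON, 0.14 for Ex-4 and -0.17 for FSK. These intervals describe the spread over peaks of these libraries, not replicate error. The levels compared are the ones from which the rule took its changes, so they describe the 805 peaks and test nothing.

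Single peaks differed between genotypes by far more than the median. In CON, 77 of the 805 (9.57%) stood 2-fold or more above WT in Med14 S983A, against 4.9% of tested peaks, and 126 (15.7%) stood 2-fold or more below it, against 10.5%. With Ex-4, 83 (10.3%) were higher, against 4.98%, and 116 (14.4%) lower, against 9.6%. With FSK, 19 (2.36%) were higher, against 4.07%, and 136 (16.9%) lower, against 11.4%. Of the 126 peaks lower in CON, 97 were also lower with FSK, or 77%, against 81.3% of the 9120 tested peaks lower in CON. Of the 77 higher in CON, 58 (75.3%) were no longer 2-fold higher with FSK, against 35.6% of the 4236 tested peaks higher in CON. The 805 peaks were also weaker in CON than tested peaks, and the part of their level in these shares was not tested.

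**Figure D3:**
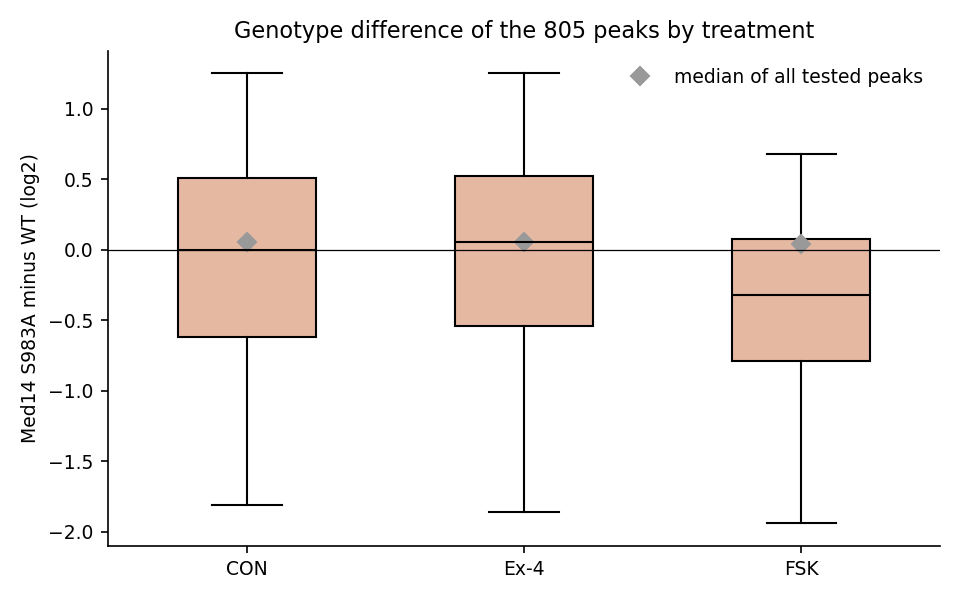
Difference between Med14 S983A and WT on the log2 scale at the 805 peaks under the 3 treatments. Boxes hold the middle 50% of peaks with the median as a line, whiskers run from the 5th to the 95th percentile, and gray diamonds mark the median of all tested peaks. The median of the 805 peaks lies at -0.0041, 0.051 and -0.32 in the order CON, Ex-4, FSK.

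The FSK change was smaller in Med14 S983A at 646 of the 805 peaks (80.2%, against 50.2% of tested peaks), with a median difference of -0.31 (-0.34 to -0.28). At 44 peaks (5.47%) it was at least 2-fold smaller, against 1.02% of tested peaks, and at 5 (0.621%) at least 2-fold larger, against 0.383%. The Ex-4 change differed little, by a median of 0.041 (0.022 to 0.058), which was 0.01 under quantile normalization. It was at least 2-fold smaller in Med14 S983A at 1 peak (0.124%, against 0.138% of tested peaks) and at least 2-fold larger at 3 (0.373%, against 0.381%). Leaving out chromosomes 4, 5, 9 and 15, a choice made with the data in view, left the FSK difference at -0.31 and the Ex-4 difference at 0.044. The rule used these changes, so their differences describe the 805 peaks and test nothing. Among 1153 tested peaks past the FSK limits and under the Ex-4 limits in both genotypes, described below, the FSK change was smaller in Med14 S983A at 67.4%. WT FSK was also the deepest library, and the part of depth in the smaller FSK change of Med14 S983A was not tested.

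The size of the FSK difference moved with the level in CON. When the 805 peaks were split into 4 equal groups by their WT CON level, the median FSK difference was -0.54 in the weakest group (0.218 to 1.66 FPKM), then -0.42 and -0.29, and -0.088 in the strongest (7.45 to 53.5 FPKM). Split by the Med14 S983A CON level it was -0.27, -0.41, -0.33 and -0.27. It was below 0 in every group under both splits, while the gradient appeared under the WT split alone. The CON value that sets the groups is also subtracted in the change of that genotype.

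The largest genotype differences in FSK change came with unequal CON levels. At chrX:154148943-154149352, accessibility was 0.484, 2.02 and 7.46 FPKM in WT (CON, Ex-4, FSK) and 2.80, 5.50 and 6.80 in Med14 S983A. At chr18:41387809-41388314 it was 0.758, 2.19 and 12.7 in WT and 4.22, 8.33 and 13.3 in Med14 S983A. At chr2:145979861-145980206 it was 1.32, 2.85 and 21.6 in WT and 6.30, 13.3 and 22.8 in Med14 S983A. In these 3 peaks, those with the most reduced FSK change, Med14 S983A was higher in CON by between 1.75 and 1.91 and nearly equal with FSK, within -0.12 and 0.076. The opposite was found at the 3 peaks with the largest FSK change relative to WT. At chr20:10671076-10672305 the 3 Med14 S983A libraries gave 0.37, 1.504 and 16.5 FPKM, against 8.93, 13.8 and 25.2 in WT. At chr5:140643072-140643680 they gave 0.82, 2.69 and 11.9 FPKM against 6.73, 10.4 and 22.1. At chr1:226498488-226499873 they gave 1.84, 10.2 and 27.9 against 8.33, 25.3 and 50.9. Med14 S983A was lower in all 3 treatments at each of these peaks, and FSK narrowed the gap without closing it, to between -0.59 and -0.87.

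To see how the 805 peaks differ from others that FSK raised, they were set beside the 1153 tested peaks with an FSK change of at least 1 and an Ex-4 change under 1.5-fold in both genotypes. Of 3140 tested peaks that FSK raised at least 2-fold in both genotypes, 25.6% passed the Ex-4 limit in both, 37.6% in 1 genotype and 36.7% in neither. The levels in CON were alike, with medians of 3.66 FPKM in WT and 3.15 in Med14 S983A for the 805 and 3.85 and 3.19 for the 1153. With FSK they were 18.5 and 13.3 against 12.0 and 9.44 FPKM. The 805 peaks thus had the larger FSK response, 2.02 in WT and 1.68 in Med14 S983A against 1.41 and 1.27. Among the 1153, Ex-4 was above CON at 84.9% of peaks in WT and 95.2% in Med14 S983A, with median changes of 0.24 and 0.40. Among all tested peaks, 55% lay below CON with Ex-4 in WT and 55.2% in Med14 S983A. Both changes of a genotype subtract the same CON library. The FSK limit therefore favours a positive Ex-4 change at the 1153, and the Ex-4 limit favours a larger FSK change at the 805. The part of this in these values was not tested.

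The median FSK difference between genotypes was -0.31 at the 805 peaks and -0.11 (-0.14 to -0.096) at the 1153, where 67.4% of peaks had the smaller change in Med14 S983A. The gap between these values was not the same at every size of the FSK change. With a mean FSK change of both genotypes from 1.5 to 2, the difference was -0.31 at 309 of the 805 peaks and -0.30 at 302 of the 1153, and from 2 to 2.5 it was -0.42 at 187 and -0.40 at 53. From 1 to 1.5 it was -0.20 at 174 and -0.072 at 795. Above 2.5 only 3 of the 1153 remained, too few to compare. The range from 1 to 1.5 holds most of the 1153, and there the gap remained. In it the 805 peaks had the higher median FSK change in WT, 1.42 against 1.29, and the same in Med14 S983A, 1.19. These changes are the terms of the difference.

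Length and chromosome, which the rule did not use, set the 805 peaks apart little from all tested peaks. The 805 were longer in median than the 1153 peaks raised by FSK and under the Ex-4 limit. Their median length was 606 bp (593 to 620), against 584 bp (581 to 586) for tested peaks and 517 bp (500 to 541) for the 1153. The middle 50% spanned 481 to 779 bp, a narrower band than the 393 to 848 bp of tested peaks. The share of tested peaks that were members ranged from 0.488% on chromosome 19 (12 of 2460, exact 95% binomial interval 0.252 to 0.851) to 1.23% on chromosome 6 (51 of 4149, 0.917 to 1.61), around 0.931% in all. The limits of a merged peak come from all 6 libraries, the stimulated ones included.

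Most of the 805 peaks stood alone. The median distance to the nearest other one was 680063 bp, although the nearest tested peak lay at a median of 4851 bp. Of the 805, 128 (15.9%, exact binomial interval 13.4 to 18.6) had another within 50 kb. The 1153 peaks raised by FSK and under the Ex-4 limit gave 15.2% among themselves. They are the larger set, and such a share tends to grow with the size of the set, so the shares are not directly comparable. Neighbours were also counted as pairs of one of the 805 and another tested peak. Within 5 kb, 28 of 460 pairs (6.09%) had a member as the neighbour. This share was 4.13% within 50 kb and 1.87% within 500 kb, beside 0.931% of all tested peaks. A pair of members counts from both sides and chains add many pairs, so the shares of pairs and of peaks are unlike measures. Neighbouring peaks that were not members shifted slightly in the same direction. Within 5 kb, 502 such peaks had a median FSK change of 0.12 in WT and 0.058 in Med14 S983A, and beyond 500 kb the median was -0.16 in both genotypes. The corresponding Ex-4 medians were 0.057 and 0.061 within 5 kb and -0.024 and -0.028 beyond 500 kb. These shifts are small beside the changes of the 805 peaks.

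**Figure D4:**
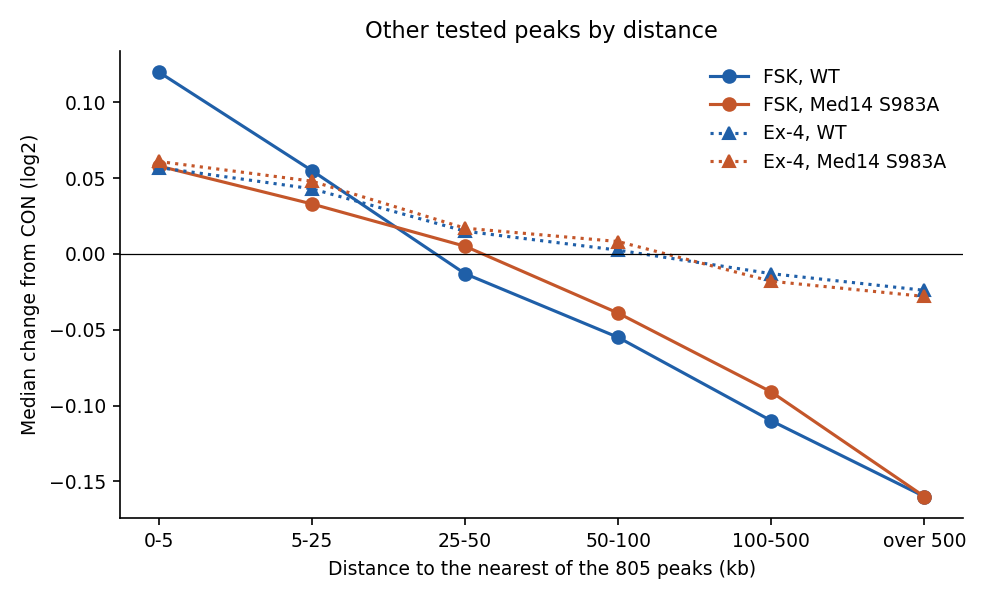
Median change from CON on the log2 scale of tested peaks that are not among the 805, by distance to the nearest of the 805 in kb, for FSK (circles, solid lines) and Ex-4 (triangles, dotted lines) in WT (blue) and Med14 S983A (orange). All 4 medians fall with distance, for FSK in WT from 0.12 within 5 kb to -0.16 beyond 500 kb.

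Sites that appeared with FSK gathered near the 805 peaks. These are 21487 merged peaks called in both FSK libraries and in neither CON library, which the rule left out because it required a call in all 6. At least 1 lay within 10 kb of 271 of the 805 peaks (33.7%, exact binomial interval 30.4 to 37.0), against 23.5% of tested peaks, and within 50 kb of 76.5% against 65.0%. The mean number within 50 kb was 2.88 for the 805 and 1.42 for tested peaks. It was 2.16 for the 1153 peaks raised by FSK and under the Ex-4 limit. Peaks called in both CON and neither FSK library, 2644 in all, lay within 10 kb of 5.47% of the 805 against 3.39% of tested peaks, and within 50 kb of 13.9% of each. Each FSK library was the deepest of its genotype, 251100000 and 163000000 reads in peaks, and the part of depth in these counts was not tested. The counts for the 805 and for tested peaks come from the same libraries, which does not show that depth acts alike on both.

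Part of this excess lay in a few dense loci. At least 10 such FSK peaks within 50 kb were found at 40 of the 805 (4.97%), against 0.317% of tested peaks and 1.47% of the 1153, and at least 20 at 15, of 31 tested peaks with that many. Both limits, 10 and 20, were chosen with the data in view. The 40 peaks fell into 16 loci on 10 chromosomes when joined over gaps of up to 100 kb. One locus on chromosome 1 held 13 of them, and 7 loci held 1 each. Most of the 15 peaks with at least 20 also lay in this locus on chromosome 1. The mean number of FSK peaks given above for the 805 includes this locus. Outside it, the most FSK peaks within 50 kb were 21 at chromosome 6 from 25619597 to 25715177, 20 at chromosome 5 from 12434333 to 12489312 and 20 at chromosome 1 from 128982873 to 129006084. These 3 loci held 2, 3 and 2 of the 805 peaks, with median FSK changes of 2.34, 2.39 and 2.72 in WT and 2.60, 1.72 and 2.72 in Med14 S983A.

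Joined over gaps of up to 50 kb, the 805 peaks formed 43 pairs, 9 chains of 3, 1 of 4 and 1 of 11, and 677 stood alone. The chain of 11 spanned 146 kb of chromosome 1 from 52671883 to 52817917 and took in 11 of the 17 tested peaks there. Its members had a median of 1.18 FPKM in WT CON (0.421 to 9.68), which Ex-4 raised to 6.28 (2.12 to 24.3) and FSK to 17.0 (12.1 to 46.5). In Med14 S983A the medians were 2.10, 8.15 and 17.4 FPKM. The FSK levels did not differ in median between genotypes, by 0.031, while CON was higher in Med14 S983A by 0.37. Around these members more peaks were called with the stimuli. Of 109 merged peaks inside the region, WT had 25 called in CON, 43 under Ex-4 and 97 under FSK, and Med14 S983A had 31, 53 and 80. Over the whole series the called peaks numbered 131256, 132611 and 169451 in WT and 119024, 129420 and 144169 in Med14 S983A. WT FSK was the deepest library, and the part of depth in these counts was not tested. The 44 called in both FSK and neither CON library had medians of 13.6 FPKM in WT FSK and 13.7 in Med14 S983A FSK, close to the members beside them. The 100 kb before the chain held another 79 merged peaks, 46 of them FSK peaks of this kind, and 2 further members, whereas the 100 kb after it held 28 merged peaks, 6 such FSK peaks and no member.

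Within this region, accessibility at chr1:52707415-52708240 was 0.632, 6.52 and 19.9 FPKM in WT (CON, Ex-4, FSK) and 2.66, 9.66 and 21.4 in Med14 S983A. Its WT Ex-4 change of 2.63 (10.3-fold) was the largest of the 805 in WT. At chr1:52764700-52765416 the values were 0.618, 3.50 and 12.1 FPKM in WT and 0.603, 4.94 and 11.8 in Med14 S983A, so that the FSK changes were 3.49 and 3.48. At chr1:52789273-52790010 they were 0.421, 2.12 and 13.6 and 1.12, 5.42 and 16.1, and at chr1:52592136-52592835, among the 2 members before the chain, 0.453, 3.42 and 9.26 and 1.28, 8.14 and 11.1. FSK brought all 4 peaks to similar levels in both genotypes, within 0.25 on the log2 scale. Not every peak of the region moved. Among its tested peaks that were not members, chr1:52771160-52771693 had 6.51, 8.71 and 6.49 FPKM in WT and 5.21, 4.64 and 6.10 in Med14 S983A, and chr1:52805735-52806372 went down from 23.0 FPKM in WT CON to 12.9 and 13.1, and from 18.6 to 12.8 and 15.1 in Med14 S983A. The other tested peaks inside the chain that were not members rose with both stimuli in both genotypes. Among them, the FSK changes were 0.91 in WT and 1.19 in Med14 S983A at chr1:52804637-52805447, and 0.51 and 0.30 at chr1:52738284-52738813. The peaks named here that were not members were named after their values were seen.

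**Figure D5:**
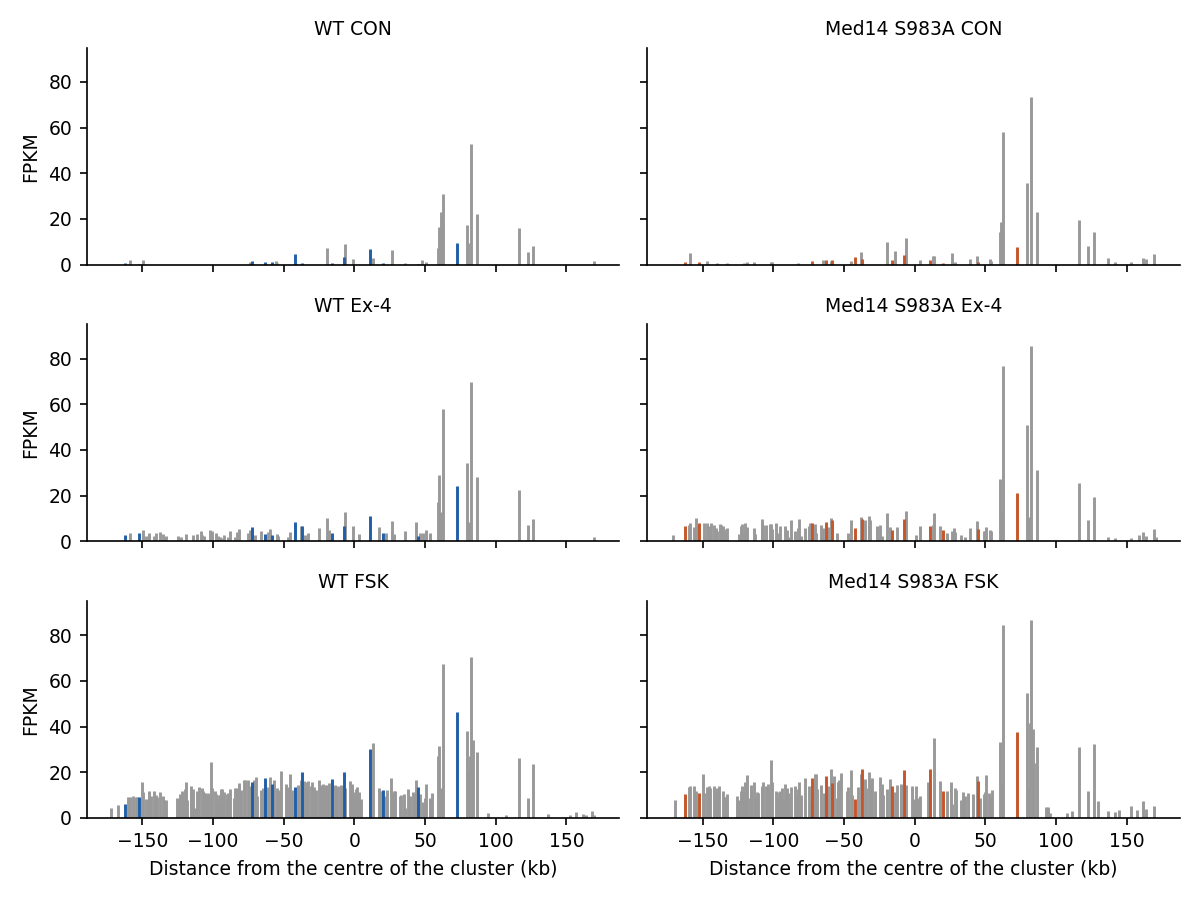
FPKM of each merged peak (vertical lines) by distance in kb from the centre of the chain of 11 peaks on chromosome 1, with 100 kb on both sides, in WT (left) and Med14 S983A (right) for CON, Ex-4 and FSK from top to bottom. Colored lines are members of the 805 and gray lines other peaks, and peaks listed at 0 in a library have no visible line. A listed 0 marks a peak not called in that library, which does not show that reads were absent. The left part of the region has few called peaks in CON and many under FSK. The 44 called in both FSK libraries and no CON library have medians of 13.6 and 13.7 FPKM there.

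The second longest chain, chromosome 13 from 44175979 to 44274721, held 4 of 10 tested peaks, with median FSK changes of 1.76 in WT and 1.60 in Med14 S983A and Ex-4 changes of 0.96 and 0.94. Called peaks there rose from 13 in WT CON to 29 in WT FSK and from 14 to 26 in Med14 S983A. Over the whole series they rose from 131256 to 169451 in WT and from 119024 to 144169 in Med14 S983A. The part of depth in these counts was not tested. Of the 9 chains of 3, the one with the largest mean change, on chromosome 14 from 3280616 to 3304297, which includes one of the 10 peaks with the largest mean change, had median FSK changes of 3.99 in WT and 3.15 in Med14 S983A. Inside its 23.7 kb it held 1 peak called in both FSK and neither CON library, while chr14:3290317-3291437 had 5 within 50 kb.

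Sequences, motifs and neighbouring genes of the 805 peaks were not analysed here.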

How the data were processed

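ATAC-seq libraries of INS-1 cells, 1 for each combination of genotype (WT, Med14 S983A) and treatment (CON, Ex-4, FSK), were analysed from the table of merged peaks. Per the labels and methods, the authors used Trim Galore for trimming, BWA for alignment to rn6, SAMtools for filtering and MACS2 for peaks of each library. The deposited FPKM values were computed by the authors over the merged peaks with HOMER. The methods describe shifting of fragments after peak calling, for sorting by nucleosome class, and do not tie it to these values. Multiplied by peak length, FPKM summed to 98.6% to 99% of the full scale, and all low values checked, 6945 to 11636 in a library, were within 0.15 of a whole number of reads, which gave the reads in peaks. The values do not tell a read from one end of a pair. Depth sets the counting error of each peak, and variation between libraries is not known.

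Changes were taken as log2(FPKM + 0.5), with the authors' scaling kept. No test across peaks was run. Medians carry order-statistic intervals, shares exact binomial and reads exact Poisson intervals, all at 95%, and all cover counting or the spread over peaks only. The rule, the comparisons and the rule for named peaks were chosen with earlier results of these data known. Named peaks are the 10 with the largest mean of the 4 changes, the 5 with the highest mean FPKM, the 3 with the largest and 3 with the smallest genotype difference of the FSK change, the 3 with the largest and 3 with the smallest Ex-4 change relative to FSK, the 3 chains with the most peaks (ties by mean change), and the 3 just inside and 3 just outside the limits. Distances in chains are gaps between peak edges, and counts of neighbours use peak midpoints. The selection was run on simulated reads with planted changes past the limits and counting error only. This checks the calculation and cannot show how the rule behaves under variation between libraries. The rn6 sequence and annotation were not used here, so motifs and genes were not analysed here. Software was matplotlib 3.10.9, scipy 1.17.1, pandas 2.3.3, numpy 2.4.6 and Python 3.11.15.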

Additional observations from a re-analysis of the deposited data

How the results depend on the processing

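No paired analysis was possible because no condition has more than 1 library, and leaving out a replicate was not possible for the same reason. The alternatives without the longest chain and without 4 chromosomes were chosen after seeing the data. Motif alternatives were not run. Peaks were chosen again under each setting. The count of 805 was 1038 and 600 with pseudocounts of 0.1 and 1, 754 with a mean of at least 3 FPKM, 878 with each library centred on its median, 804 under quantile normalization (753 shared with the 805) and 942 with 1.5-fold for both stimuli, and it moved beyond 1.5 times to 142 with 2-fold for both, which by construction keeps fewer peaks.

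The median FSK change was 2.13, 1.95, 2.11, 2.59 and 1.92 in WT with a pseudocount of 0.1, with 1, under quantile normalization, with 2-fold and with 1.5-fold for both stimuli. In Med14 S983A it was 1.78, 1.61, 2.18 and 1.57 with both pseudocounts and both limits and 1.74 when centred. The median Ex-4 change was 1.25 in WT with 2-fold for both, and in Med14 S983A 0.95 and 0.85 with the pseudocounts, 0.86 under quantile normalization and 1.26 and 0.85 with the limits. No median turned its direction among those whose interval excludes 0. The genotype difference with FSK, -0.32, was -0.24 with a pseudocount of 1 and -0.17 when centred. Centring and quantile normalization moved the difference in CON, -0.0041, to 0.10 and 0.07, and centring moved that with Ex-4 to 0.14. The difference of the FSK change, -0.31, was -0.26 when centred and -0.39 under quantile normalization, and that of the Ex-4 change, 0.041, was 0.065 with a pseudocount of 0.1, 0.01 under quantile normalization, and 0.014 and 0.017 with the 2-fold and 1.5-fold limits. The share of peaks with another within 50 kb was 12.5% within 25 kb and 20.5% within 100 kb, and 14.7% without the longest chain. Median length was 622 bp with 2-fold for both. The other 60 values lay within the interval of the value reported or, for counts, within 1.5 times. The cause of these movements was not tested.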
